A study of Mus musculus with 12 samples.

Results

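Cholesterol synthesis, its control by the transcription factor SREBP2, and cholesterol uptake and transport were followed through 26 genes of the 38087 in the count table. These are 4 control genes, 8 enzymes of the mevalonate and isoprenoid steps, 12 enzymes of the sterol steps, and 2 genes of uptake and transport. Of the 26 genes, 25 were found by symbol and 1, Msmo1, by its Ensembl identifier, because the table lists it under the older symbol Sc4mol. All 26 passed the filter on low counts.

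The 12 RNA libraries came from livers of male C57BL/6j mice, all germ-free, meaning that they carried no microbes, and all 13 to 16 weeks old. For the 6 ghrelin libraries mice were given rat ghrelin under the skin, 10 µg per mouse each day for 5 days. For the 6 PBS libraries mice were given phosphate-buffered saline in the same way. Each library is called a liver here, although the labels do not say that each is a separate animal. Zeitgeber time 2, early in the light phase, is the labelled time of the injections and also of the samples. The labels do not give the interval between the last injection and sampling, and mice with a microbiota are not analysed here. Ghrelin, a stomach hormone, promotes appetite and acts on the pituitary to release growth hormone.

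The liver builds cholesterol from acetyl-CoA by way of mevalonate, farnesyl diphosphate, squalene and lanosterol. SREBP2, encoded by Srebf2, is held in the endoplasmic reticulum with its escort protein Scap. When sterols are low, Scap takes SREBP2 to the Golgi, where proteases release the fragment that enters the nucleus and activates the genes of the pathway. When sterols are high, Insig1 and Insig2 retain Scap in the endoplasmic reticulum.

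SREBP2 binds sterol regulatory elements and acts with NF-Y, which binds CCAAT boxes, so promoters were searched on both strands for TCACNCCAC and for CCAAT. RefSeq windows on GRCm38.p6, which run from 250 bases before to 50 bases after a start site, were found for 22 of the 26 genes, 28 windows in all. Those of Fdps, Fdft1, Sqle and Stard4 were not found. CCAAT stood in 20 of the 28 windows (71.4%), which belong to 20 genes, against 12289 of 32851 windows over the whole table (37.4%). Another motif searched, GGGCGG, stood in windows of 20 genes as well, and in 11714 of all 32851 windows (35.7%). A high share was therefore not particular to CCAAT. The motif TCACNCCAC stood in 1 window, that of Hmgcs1, and in 1.24% of all windows. A match is a description of letters and not evidence of binding.

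The windows below are shown because they belong to the genes with the highest and the lowest median correlation with the other enzymes among those with a window, described further on, and to Idi1, which had the lowest log2 fold change. Hmgcs1 (chr13:119690101-119690400 on the plus strand), Idi1 (chr13:8885356-8885655 on the plus strand), Acat2 (chr17:12960676-12960975 on the minus strand) and Cyp51 (chr5:4104648-4104947 on the minus strand) varied together between livers. Lbr (chr1:181842352-181842651 on the minus strand) and Ggps1 (chr13:14063439-14063738 on the minus strand) did not follow them closely. Capitals mark CCAAT on either strand, so that ATTGG is the reverse form, and in Hmgcs1 also the TCACNCCAC match.
Hmgcs1: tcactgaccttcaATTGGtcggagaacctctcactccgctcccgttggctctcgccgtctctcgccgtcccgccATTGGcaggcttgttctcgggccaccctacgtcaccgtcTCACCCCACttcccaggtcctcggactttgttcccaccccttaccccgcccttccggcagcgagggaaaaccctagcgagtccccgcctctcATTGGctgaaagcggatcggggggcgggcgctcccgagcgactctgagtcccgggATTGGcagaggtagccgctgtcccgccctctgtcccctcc
Idi1: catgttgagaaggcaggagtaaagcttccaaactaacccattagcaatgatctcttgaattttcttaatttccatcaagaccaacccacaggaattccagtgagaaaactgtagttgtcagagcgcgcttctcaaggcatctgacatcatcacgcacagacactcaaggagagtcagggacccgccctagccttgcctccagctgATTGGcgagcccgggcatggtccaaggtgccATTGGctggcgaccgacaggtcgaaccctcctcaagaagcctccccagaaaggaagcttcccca
Cyp51: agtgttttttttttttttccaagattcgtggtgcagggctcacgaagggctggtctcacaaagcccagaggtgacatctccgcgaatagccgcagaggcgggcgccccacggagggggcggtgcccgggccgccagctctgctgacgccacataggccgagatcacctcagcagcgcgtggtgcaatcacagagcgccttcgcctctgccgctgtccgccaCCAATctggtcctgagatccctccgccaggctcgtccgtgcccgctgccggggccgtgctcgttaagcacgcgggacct
Acat2: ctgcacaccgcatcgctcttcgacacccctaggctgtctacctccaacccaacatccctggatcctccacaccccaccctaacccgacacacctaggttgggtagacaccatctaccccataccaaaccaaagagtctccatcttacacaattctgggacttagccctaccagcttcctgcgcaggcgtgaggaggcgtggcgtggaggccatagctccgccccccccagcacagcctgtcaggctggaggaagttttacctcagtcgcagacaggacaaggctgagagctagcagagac
Lbr: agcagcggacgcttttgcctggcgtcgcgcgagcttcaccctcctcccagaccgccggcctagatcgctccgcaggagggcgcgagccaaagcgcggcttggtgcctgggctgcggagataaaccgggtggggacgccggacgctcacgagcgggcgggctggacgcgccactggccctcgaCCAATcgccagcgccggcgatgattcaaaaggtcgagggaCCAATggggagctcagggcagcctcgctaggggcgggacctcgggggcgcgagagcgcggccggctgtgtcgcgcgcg
Ggps1: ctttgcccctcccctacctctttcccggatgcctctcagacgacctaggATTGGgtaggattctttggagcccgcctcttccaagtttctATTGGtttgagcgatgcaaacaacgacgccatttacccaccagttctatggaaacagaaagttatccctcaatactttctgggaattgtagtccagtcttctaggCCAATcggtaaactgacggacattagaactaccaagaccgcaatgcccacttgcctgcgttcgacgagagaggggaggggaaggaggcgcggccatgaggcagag
The Hmgcs1 window held 4 CCAAT matches, those of Idi1 and Lbr 2 each, that of Cyp51 1, and that of Ggps1 3. The Acat2 window held none, although Acat2 varied with the other enzymes. A shorter motif, CACCCCAC, was also searched. It stood in windows of 2 genes, Acat2 and Hmgcs1, and in 2.87% of all windows.

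Total counts were 15775059 to 21457627 in the ghrelin group, with a mean of 18536889 ± 2398783, and 18746597 to 22302533 in the PBS group, with a mean of 20959324 ± 1378600 (SD, n = 6 each). Summed over 7 hepatocyte markers, levels were 80079 to 99029 CPM, that is counts scaled to library size, in ghrelin livers and 82648 to 115685 CPM in PBS livers. The leukocyte, adipose and pancreas lists summed to at most 22.6 CPM in any liver, and the pancreas markers Prss2 and Cel had no count anywhere. None of the markers tested was called; of the leukocyte list 3 of 6, of the adipose list 2 of 5 and of the pancreas list 0 of 5 passed the filter. Among the hepatocyte markers, the urea cycle enzyme Cps1 had 8106 to 9552 CPM in ghrelin livers and 9593 to 10856 CPM in PBS livers, without overlap. Serpina1a lay in the other direction, with 1654 to 1888 CPM in ghrelin livers and 1522 to 1745 CPM in PBS livers, and the groups overlapped for it and for the other 5. Because the tissue was sequenced whole, fewer cells of a type and less RNA per cell cannot be told apart.

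Levels of different genes were compared per exon length, in TPM, which scales counts to exon length and library size. Sc5d, which introduces a double bond late in the sterol steps, had the highest mean level over all livers, with 197 ± 40.2 TPM in ghrelin livers and 233 ± 36.3 TPM in PBS livers (SD, n = 6 each). Insig1 followed with 182 ± 14.1 TPM in ghrelin livers and 221 ± 80.03 TPM in PBS livers. Hmgcs1, which makes the precursor of mevalonate, had 177 ± 37.7 TPM in ghrelin livers and 223 ± 61.2 TPM in PBS livers. Insig2 had 206 ± 22.4 TPM in ghrelin livers, where it was the highest of the 26, and 193 ± 29.0 TPM in PBS livers. The spreads of these neighbours overlapped, so their order is not fixed. At the low end stood Srebf2 with 7.203 ± 0.707 TPM in ghrelin livers and 8.40 ± 0.747 TPM in PBS livers, and Ggps1 with 2.98 ± 0.378 TPM in ghrelin livers and 3.47 ± 0.540 TPM in PBS livers. Ggps1 makes geranylgeranyl diphosphate, which leaves the cholesterol route for protein prenylation. The exons of all annotated transcripts were joined to give each length, which lowers the TPM of genes with long, little used exons.

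**Figure D1:**
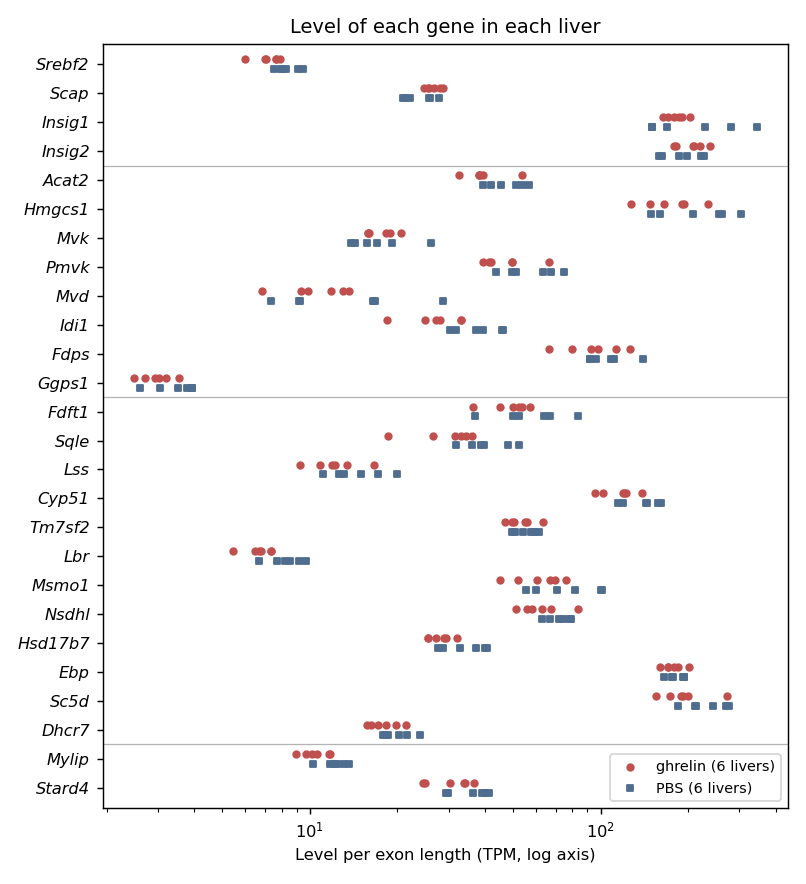
TPM on a log axis for each of the 26 genes, in pathway order, with 1 point per liver (circles, ghrelin; squares, PBS; n = 6 each). Mean levels over all livers ran from 215 TPM for Sc5d to 3.23 TPM for Ggps1, and for every gene the points of both groups overlap.

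Ghrelin and PBS livers were compared gene by gene over the whole table. None of the 26 genes was called at an adjusted p under 0.05 with the quasi-likelihood test of edgeR, while 15 of 14170 genes were (0.106%), 6 higher and 9 lower. The log2 fold change was negative, that is lower in ghrelin livers, for 23 of the 26 genes (88.5%), against 49.99% of all genes tested. Its median over the 26 genes was -0.22, and -0.14 without PBS 5, the library in which 17 of the 26 genes had their highest level. Most of these genes varied together between livers, as described further on. Counts of signs, here and below, are therefore not counts of separate readings. At an unadjusted p under 0.05 stood 4 of the 26 genes (15.4%), against 1896 of all genes (13.4%). This count moved with single libraries and with the filter. It was 10 of 26 without PBS 2 (1741 of 14274 genes) and without PBS 3 (1559 of 14263), 9 without ghrelin 4 (2177 of 14282), 7 without ghrelin 5 (1634 of 14314) and 9 with no filter on low counts (2555 of 27410). The count fell to 3 without ghrelin 1 (1675 of 14312), ghrelin 2 (1896 of 14287), PBS 4 (1496 of 14332) or PBS 6 (1862 of 14294). Without any other single library it was 4 or 5. None of the 26 genes had groups without overlap, whereas 0.459% of all genes were lower and 0.367% higher without overlap. DESeq2 called 223 genes, 0 of the 26 among them, and had 5 of the 26 at an unadjusted p under 0.05, against 2066 of 27410 genes. A p that misses the threshold does not show that the groups were alike.

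**Figure D2:**
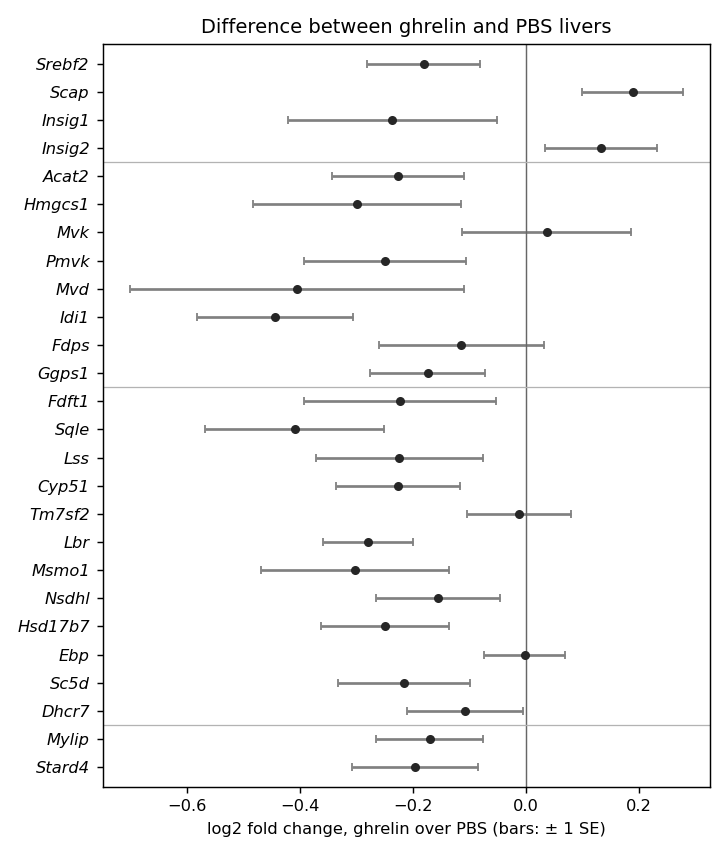
Log2 fold change of ghrelin over PBS for each gene, in pathway order, with bars of 1 SE from the edgeR fit. Of the 26 estimates, 23 lie below 0, from -0.45 for Idi1 to 0.19 for Scap.

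The control genes divided evenly, with 2 of 4 negative. Srebf2 had a lowest, median and highest level of 21.3, 26.9 and 32.9 CPM in ghrelin livers, against 26.4, 29.5 and 35.5 CPM in PBS livers. Its log2 fold change was -0.18 (SE 0.10, adjusted p = 0.453). The groups overlapped, and 3 ghrelin livers lay below every PBS liver. Scap had 95.0, 100.1 and 115.5 CPM in ghrelin livers, against 77.6, 88.6 and 106 CPM in PBS livers. Its log2 fold change of 0.19 (SE 0.09, adjusted p = 0.374) was the highest of the 26. All 6 ghrelin livers were above the PBS median, and ghrelin 2 and ghrelin 5 were above every PBS liver.

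Insig1, itself an SREBP2 target, had 263, 292 and 330.1 CPM as lowest, median and highest level in ghrelin livers, against 228, 322 and 550 CPM in PBS livers. Its log2 fold change was -0.24 (SE 0.19, adjusted p = 0.612), and -0.05 without PBS 5. The PBS livers held both extremes, PBS 3 the lowest and PBS 5 the highest. Insig2, which is less dependent on SREBP2, had 314, 376 and 409 CPM in ghrelin livers, against 277, 347 and 405 CPM in PBS livers. For Insig2 the log2 fold change was 0.13 (SE 0.10, adjusted p = 0.593), and all ghrelin livers but 1 were above the PBS median. The ratio of Insig1 to Insig2, both in TPM, was 0.801, 0.748, 0.966, 0.824, 0.982 and 1.05 in ghrelin livers 1 to 6, against 1.15, 1.04, 0.806, 0.947, 1.52 and 1.26 in PBS livers 1 to 6. PBS 1, PBS 5 and PBS 6 were above every ghrelin liver, and the other PBS livers lay within the ghrelin range.

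In the mevalonate and isoprenoid steps, 7 of 8 genes were lower in ghrelin livers by their log2 fold change, whose median was -0.24. Idi1, which isomerises isopentenyl diphosphate, had 33.9, 53.7 and 58.7 CPM in ghrelin livers, against 52.5, 70.0 and 82.2 CPM in PBS livers. Its log2 fold change of -0.45 was the lowest of the 26 (SE 0.14, adjusted p = 0.206). All 6 ghrelin livers lay under the PBS median, and 4 PBS livers lay above every ghrelin liver. Acat2, the cytosolic thiolase that joins acetyl-CoA units, had 43.7, 50.3 and 67.9 CPM in ghrelin livers, against 50.3, 60.9 and 74.3 CPM in PBS livers. Acat2 differed by -0.23 on the log2 scale (SE 0.12, adjusted p = 0.417). The groups overlapped, with 3 ghrelin livers below every PBS liver and 2 PBS livers above every ghrelin liver.

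Of the 8 genes of these steps, only Idi1 reached an unadjusted p under 0.05. Hmgcs1 ranged over 308 to 532 CPM in ghrelin livers and 336 to 715 CPM in PBS livers. All 6 ghrelin livers were below its PBS median, and 3 PBS livers were above every ghrelin liver. Mvd, a low-count gene, ranged over 6.72 to 14.1 CPM in ghrelin livers and 6.70 to 27.4 CPM in PBS livers, with PBS 5 far above the rest. Mvk ranged over 21.1 to 32.0 CPM in ghrelin livers and 18.6 to 35.7 CPM in PBS livers, and Pmvk over 34.3 to 56.5 CPM in ghrelin livers and 37.6 to 66.0 CPM in PBS livers. Both had their highest value in PBS 5. Fdps ranged over 148 to 264 CPM in ghrelin livers and 191 to 303 CPM in PBS livers. Ggps1 ranged over 6.15 to 8.32 CPM in ghrelin livers and 6.65 to 9.33 CPM in PBS livers, and its highest liver was PBS 2, not PBS 5. Log2 fold changes were -0.30 for Hmgcs1, -0.25 for the kinase Pmvk, -0.41 for the decarboxylase Mvd, -0.11 for Fdps, which makes farnesyl diphosphate, and -0.17 for Ggps1. The mevalonate kinase Mvk had 0.04. Without PBS 5 these values were -0.18 for Hmgcs1, -0.16 for Pmvk, -0.085 for Mvd, -0.013 for Fdps and 0.19 for Mvk. Mvd had the widest spread of the 26 genes, with an SE of 0.30 and a highest liver 4.09 times its lowest. Fdps shares 26.7% of its exon bases with an annotated gene on the same strand, Gm43738, which has no row in the count table. Ggps1, with 98 to 206 counts per library, shares 257 exon bases with Arid4b on the opposite strand. Reads of Arid4b may be mixed in, because the strand setting of the counting is not known.

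For all 12 sterol-step genes the estimate was negative, and their median was -0.22, although those of Tm7sf2 and Ebp were near 0 and changed sign with the scaling. Sqle, the squalene epoxidase and a known control point, had 54.3, 91.4 and 116 CPM in ghrelin livers, against 86.8, 109.7 and 149.8 CPM in PBS livers. Its log2 fold change was -0.41 (SE 0.16, adjusted p = 0.291). Ghrelin livers 1 and 2 lay below every PBS liver, and PBS 4 and PBS 5 above every ghrelin liver. Cyp51, the lanosterol demethylase, had 223, 276 and 308 CPM in ghrelin livers, against 249.7, 331 and 366 CPM in PBS livers. Cyp51 differed by -0.23 on the log2 scale (SE 0.11, adjusted p = 0.389), and all 6 ghrelin livers were under the PBS median.

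Lbr, a protein of the inner nuclear membrane with sterol reductase activity, had the smallest p of the 26 genes. Its lowest, median and highest levels were 15.1, 16.5 and 17.4 CPM in ghrelin livers, against 17.3, 19.8 and 23.7 CPM in PBS livers. The log2 fold change was -0.28 (SE 0.08, adjusted p = 0.179). The groups overlapped only narrowly, with 4 ghrelin livers below every PBS liver and 5 PBS livers above every ghrelin liver. Lbr is also known for shaping the lobed nucleus of neutrophils. The 6 leukocyte markers summed to 13.1 to 20.8 CPM in ghrelin livers and 12.8 to 22.6 CPM in PBS livers. Among them the neutrophil marker S100a9 had 0.396 to 2.64 CPM in ghrelin livers and 2.17 to 5.48 CPM in PBS livers. Their part in the Lbr result was not tested.

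Hsd17b7, a reductase of the demethylation steps, had 64.5, 72.3 and 95.4 CPM in ghrelin livers, against 69.1, 93.1 and 105 CPM in PBS livers. The Hsd17b7 difference was -0.25 on the log2 scale (SE 0.11, adjusted p = 0.357). The groups overlapped, with 5 ghrelin livers below the PBS median. Sc5d had 439, 477 and 657 CPM in ghrelin livers, against 452, 581 and 676 CPM in PBS livers. The difference was -0.22 on the log2 scale (SE 0.12, adjusted p = 0.445). Ghrelin 4 alone among the ghrelin livers was above the PBS median.

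Msmo1 ranged over 146 to 240.2 CPM in ghrelin livers and 167 to 319.8 CPM in PBS livers, and all 6 ghrelin livers were below the PBS median. Fdft1 ranged over 81.3 to 133 CPM in ghrelin livers and 77.1 to 181 CPM in PBS livers. Lss ranged over 52.4 to 89.2 CPM in ghrelin livers and 58.8 to 110.3 CPM in PBS livers. For these genes PBS 5 was the highest liver. Nsdhl ranged over 77.2 to 118 CPM in ghrelin livers and 89.98 to 115 CPM in PBS livers, with its highest value in ghrelin 4. Dhcr7 ranged over 45.2 to 66.9 CPM in ghrelin livers and 52.0 to 71.4 CPM in PBS livers. The steadiest gene was Ebp, with 195 to 232 CPM in ghrelin livers and 191 to 244 CPM in PBS livers, a highest liver only 1.28 times its lowest. Tm7sf2 ranged over 102 to 143 CPM in ghrelin livers and 107 to 141 CPM in PBS livers. Across all 26 genes the median of this ratio was 1.66, against 1.59 over all genes tested.

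For the remaining sterol genes the log2 fold changes were -0.22 for Fdft1, the squalene synthase, -0.22 for Lss, which closes the ring to lanosterol, -0.30 for Msmo1 and -0.16 for Nsdhl, both of the demethylation steps, and -0.11 for Dhcr7, a final reductase. Tm7sf2, a sterol reductase of the same step as Lbr, had -0.01, and Ebp, the isomerase, had -0.0028. Without PBS 5 the values were -0.090 for Fdft1, -0.11 for Lss and -0.044 for Dhcr7. Fdft1 shares 774 exon bases with Ctsb on the opposite strand, and Tm7sf2 shares 532 with Vps51 on the same strand. Whether the counting used strand is not given in the sources used here, and reads of these neighbours may be mixed.

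Both genes of uptake and transport were negative. Mylip, a ubiquitin ligase that removes lipoprotein receptors from the cell surface and is induced by LXR, had a log2 fold change of -0.17 (adjusted p = 0.455). Its levels were 15.2 to 21.98 CPM in ghrelin livers and 16.999 to 22.2 CPM in PBS livers, and PBS 5, highest for most of the enzymes, was its lowest PBS liver. Stard4, a soluble carrier of cholesterol between membranes, had -0.20 (adjusted p = 0.462). Its levels were 73.3 to 103.6 CPM in ghrelin livers and 80.9 to 119 CPM in PBS livers, and all 6 ghrelin livers were below the PBS median.

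**Figure D3:**
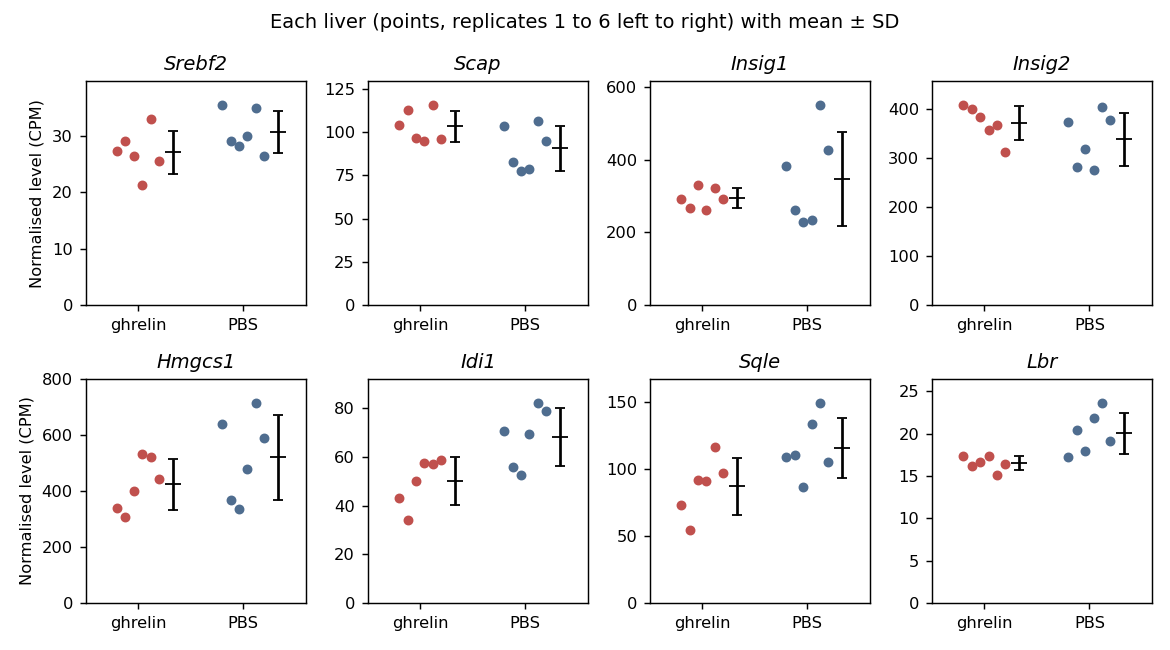
CPM in each liver for Srebf2, Scap, Insig1, Insig2, Hmgcs1, Idi1, Sqle and Lbr, with 1 point per liver and the mean ± SD beside them (n = 6 per group). The groups overlap in all 8 panels, least in Lbr, where 4 ghrelin livers lie below every PBS liver.

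Within each group the livers differed as much as the groups did. The 20 synthesis enzymes were summarised in each liver as the mean deviation of log2 CPM from each gene's mean over all livers. This deviation was -0.28, -0.39, -0.07, 0.08, 0.11 and -0.06 in ghrelin livers 1 to 6, against 0.25, -0.12, -0.22, 0.03, 0.45 and 0.21 in PBS livers 1 to 6. In ghrelin 1 and ghrelin 2 all 20 enzymes were below their mean, in PBS 6 all 20 were above it, and in PBS 5 19 were. The group means were -0.10 ± 0.197 for ghrelin and 0.10 ± 0.251 for PBS (SD, n = 6 each). Their distance is smaller than the SD of the PBS group and slightly larger than that of the ghrelin group. Set beside the SD of single livers, it is a description and not a test of the difference. Ghrelin 2 held the lowest level of 10 of the 26 genes and PBS 5 the highest of 17, against 9.36% and 6.92% of all genes tested. Ghrelin 2 had the smallest total count and PBS 5 the largest. The median correlation of the 20 enzymes with the log2 total count within groups was 0.33, against 0.013 over all genes, and the part of depth in this pattern was not tested.

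**Figure D4:**
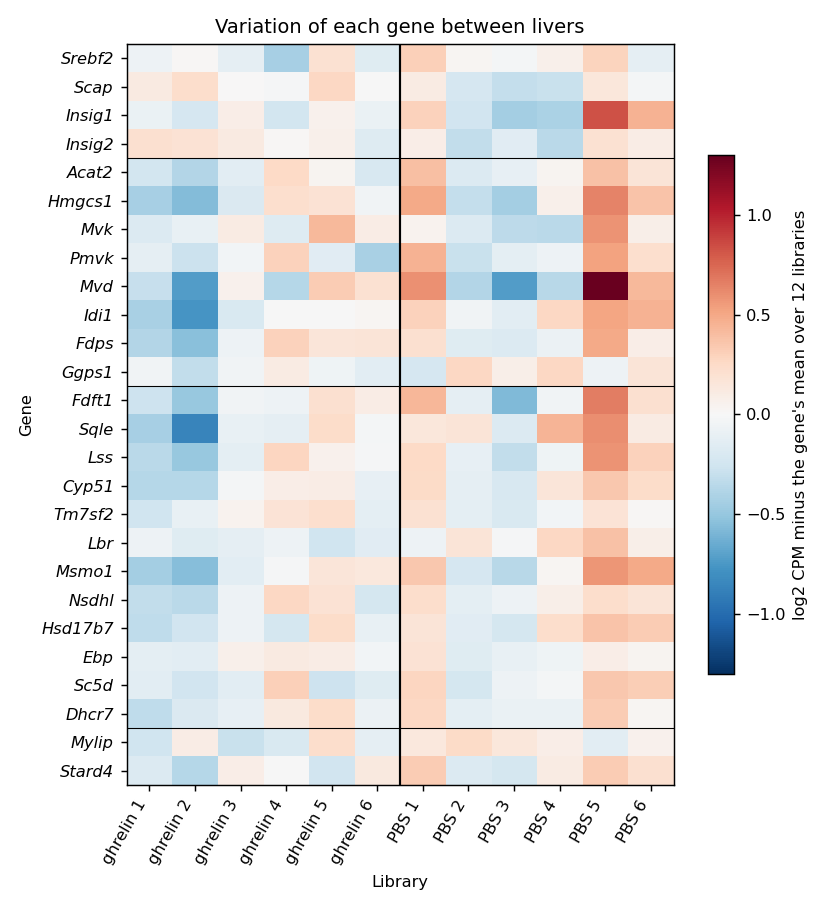
Deviation of log2 CPM from each gene's mean over 12 libraries (colour) for 26 genes (rows) and livers (columns, ghrelin on the left). Most synthesis enzymes are low together in ghrelin 1 and ghrelin 2 and high together in PBS 5, where their mean deviation is 0.45.

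After the mean of each group was removed, most of the enzymes varied together between livers. Over the 190 pairs of the 20 enzymes the median Pearson correlation across the 12 libraries was 0.73, and 171 pairs were positive. It was 0.68 within the ghrelin livers and 0.86 within the PBS livers. Over all 325 pairs of the 26 genes the median was 0.60, against -0.0005 for pairs of all genes tested. These values describe 12 livers that share their libraries and depth, and carry no test.

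Most neighbours along the pathway were positively correlated, but not all. Acat2 with Hmgcs1 had 0.92, Idi1 with Fdps 0.91, Fdft1 with Sqle 0.76, Lss with Cyp51 0.92, and Sc5d with Dhcr7 0.56. Lower values were 0.45 for Mvk with Pmvk, -0.0089 for Fdps with Ggps1 and 0.11 for Lbr with Msmo1. Ggps1 with Fdft1, which are neighbours only in the order listed, had -0.23. Fdps with Fdft1, which follow each other on the cholesterol route, had 0.84. Sqle had 0.23 with Sc5d and 0.30 with Pmvk. Hmgcs1 with Lss, which stand far apart in the route, had 0.96. Cyp51 and Hmgcs1 had the highest median correlation with the other enzymes, 0.87 and 0.86. Ggps1, on the prenylation branch, had -0.13 and Lbr 0.16, the lowest values among the 20 enzymes. Tm7sf2, which shares a step with Lbr, had 0.74, and the correlation of Tm7sf2 with Lbr was -0.03.

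The control genes had lower medians than all enzymes but Ggps1 and Lbr. The median correlation with the 20 enzymes was 0.16 for Srebf2, 0.47 for Scap, 0.60 for Insig1 and 0.34 for Insig2. Insig1 was nearest to Mvd, with 0.93. Among the control genes, Scap with Insig1 and Scap with Insig2 each had 0.79, and Srebf2 with Scap had 0.71. Stard4 had a median of 0.68 with the enzymes, and Mylip, which answers to LXR, -0.22.

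**Figure D5:**
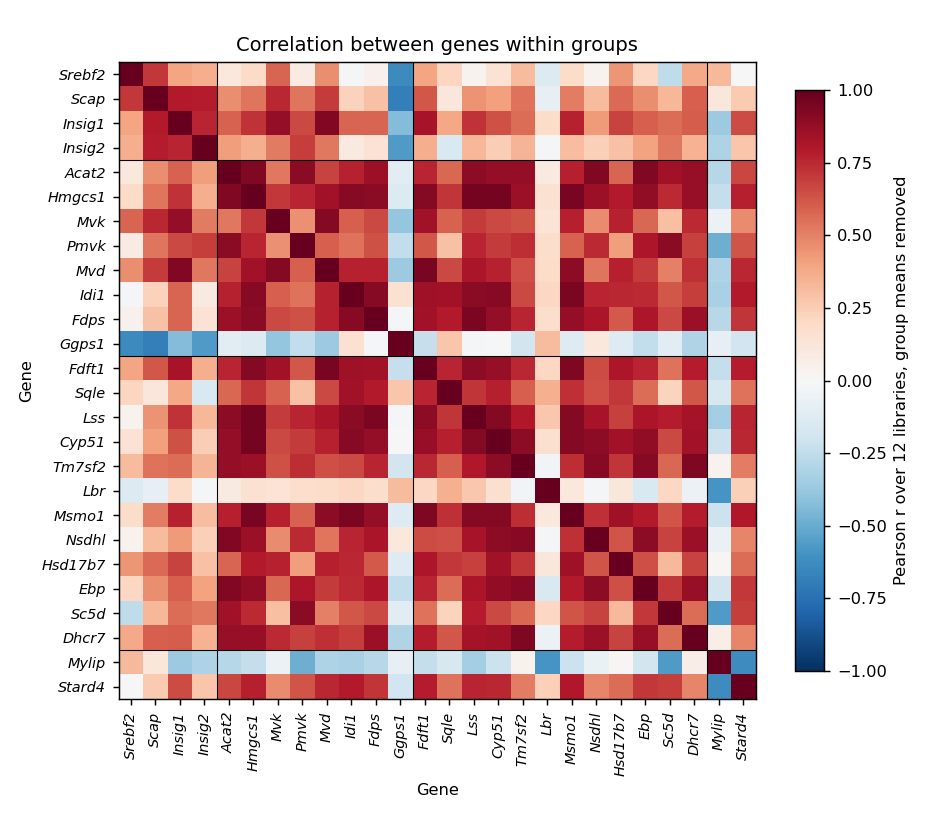
Pearson correlation over 12 libraries, group means removed, for each pair of the 26 genes in pathway order (colour). The enzymes form a block with a median of 0.73, broken by the rows of Ggps1 and Lbr, and Mylip is negative with most of them.

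Sqle was then compared with every gene tested, within groups, by permutation. None of the 25 other genes of the list and none of 14169 genes (0%) passed Benjamini-Hochberg adjustment. With 100000 permutations, a gene alone at the smallest possible p would not pass over so many genes. This limit did not decide the result for the list, whose smallest Pearson permutation p, 0.00158 for Idi1, lay far above that value. The miss does not show that correlation with Sqle was absent. At an unadjusted permutation p under 0.05, 12 of the 25 and 423 of all genes (2.99%) were positively correlated with Sqle by Pearson r. By Spearman rho 8 of the 25 were, and the share over all genes was not counted for rho. Idi1 stood highest of the list, with a Pearson r of 0.84 (permutation p = 0.00158, adjusted 0.725) and a Spearman rho of 0.65 (permutation p = 0.0337, adjusted 1), and r was 0.73 without ghrelin 2 and ghrelin 5, the libraries farthest from the median of Sqle. It ranked 10 among all genes, and 4 of the 25 were in the first 100. The other genes of the first 10 were Lrrc59, Cd274, Traf3ip2, AC159323.1, Psmd6, Edem1, Snd1, Phkb and Lman2, and the highest was Lrrc59 with an r of 0.93 (adjusted permutation p = 0.189).

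Other routes of cholesterol and lipid metabolism were set beside these genes. No gene of the 6 lists was called. In the list of SREBP processing, 9 of 16 genes were negative and the median was -0.01; the protease Mbtps2, which cuts SREBP in the membrane, had -0.22, and the liver transcription factor Creb3l3 had 0.26. Isoprenoid branches had 4 of 12 negative, endosomal cholesterol traffic 7 of 15, and esterification, efflux and LXR 4 of 11, with medians of 0.062, 0.0024 and 0.069 in this order. Among their genes, the farnesyltransferase subunit Fntb had 0.29, the coenzyme Q enzyme Coq2 0.17, the sterol transfer protein Gramd1b -0.38, the cholesterol acyltransferase Soat2 -0.24 and the phospholipid acyltransferase Lpcat3 0.22. In the conversion to bile acids 4 of 11 were negative, and Amacr, a racemase of side-chain shortening, had 120 to 151 CPM in ghrelin livers against 101 to 117 CPM in PBS livers. That difference was 0.31 on the log2 scale (adjusted p = 0.0956), and the groups did not overlap. Cyp7b1, an oxysterol hydroxylase, had 0.80 (adjusted p = 0.271). The list of fatty acid synthesis under SREBP1 came nearest to the cholesterol enzymes, with 11 of 14 negative and a median of -0.16; the fatty acid synthase Fasn had -0.57 (adjusted p = 0.243), and Mlxipl, which encodes the sugar-responsive factor ChREBP, had 0.30 (adjusted p = 0.307).

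The fatty acid genes also varied together between livers, with a median pairwise correlation of 0.49, and the other 5 lists had 0.05 to 0.16. Within the ghrelin livers alone it was 0.69, and within the PBS livers alone 0.31, where the bile acid list had 0.33. Their median correlation with the 20 cholesterol enzymes was 0.34. That of the bile acid list was close, at 0.29, and the remaining lists had -0.095 to 0.062. Their highest liver was ghrelin 4, with a mean deviation of 0.56, where the cholesterol enzymes had 0.08. In PBS 5, the highest liver of the cholesterol enzymes, the fatty acid genes had 0.26.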

How the data were processed

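Liver RNA was measured in 6 ghrelin and 6 PBS libraries. The values the authors deposited are raw counts per gene over exons. The aligner was STAR 2.4.0i and the genome mm10, as the submitters' processing notes list them. Per the labels' protocols, libraries were stranded total RNA after ribosomal depletion. How reads were counted, strand included, is not given in the sources used here.

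In edgeR 4.0.16, low counts were filtered with filterByExpr at a minimum count of 10 and a minimum total of 15, TMM factors were applied, and the groups were compared by the two-sided quasi-likelihood F test with Benjamini-Hochberg adjustment over 14170 genes, in R 4.3.3. CPM uses the TMM factors. TPM uses exon lengths of GENCODE M21. Correlations use log2 CPM with a prior count of 2, group means removed, and 100000 permutations of Sqle within groups. The scripts were tested on simulated data.

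All 26 genes were named, and of each other list the genes called and the 2 with the smallest p, not all of them printed. The 10 genes most correlated with Sqle were named too. Cps1, Serpina1a and S100a9 were named after their values were seen. Genes and lists were chosen with earlier results of these data known. Labels do not say that each library is a separate animal, so p-values measure the spread between these samples, which may be technical. Counting limits cover counting error only. The labels do not say that replicate numbers pair libraries, and the main fit does not use them as pairs. Alternatives were RLE and upper-quartile scaling, no filter, DESeq2 1.42.0, robust dispersion, a replicate block and leaving out each library.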

Additional observations from a re-analysis of the deposited data

Results flagged for a closer look

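In 4 of 94 groups of 6 livers examined, 1 liver stood far from the others by Dixon's test; chance alone flags about 1 group in 20. Sc5d had 657 CPM in ghrelin 4, and the next ghrelin liver 482 CPM. Fasn had 497 CPM in ghrelin 4, and the next ghrelin liver 333 CPM. Psmd6, among the genes most correlated with Sqle, had 59.5 CPM in ghrelin 2, and the next ghrelin liver 67.6 CPM. Cd274, also among them, had 2.94 CPM in PBS 5, and the next PBS liver 1.53 CPM.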

How the results depend on the processing

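None of the 26 genes was called under any of the 18 alternatives, with a smallest adjusted p of 0.0556, and 23 kept their sign in all of them. The 3 that did not were near 0 in the main fit. Tm7sf2 had 0.00077 and Ebp 0.011 with upper-quartile factors. Without single libraries the range was -0.057 to 0.037 for Tm7sf2 and -0.031 to 0.042 for Ebp. For Mvk it was wider, -0.048 to 0.19, with the highest value without PBS 5. Leaving out single libraries gave 21 to 24 negative genes and a median of -0.27 to -0.14. Insig1 ran from -0.33 to -0.05. The number of genes called over the whole table, 15, was 63 without a filter, 223 with DESeq2, 9 with robust dispersion and 0 to 32 when 1 library was left out, where the library left out was ghrelin 1 or 3 (0 genes), PBS 3 (5 genes), ghrelin 6 (6 genes), ghrelin 2 (9 genes), PBS 6 (23 genes), PBS 5 (24 genes) or ghrelin 4 (32 genes). With the replicate block it was 58, with 0 of the 26 genes called, 9 at an unadjusted p under 0.05 (2097 of 14170 genes) and a median of -0.19, and the smallest adjusted p, 0.0556, was that of Idi1 in this fit; same-numbered libraries correlated by -0.081 to 0.272, not above 0.1 in every pair, and 3 of 6 ghrelin libraries correlated best with their own number, so whether the numbers pair libraries is unknown. The median correlation of the 26 genes was 0.52 to 0.69 without single libraries. The correlation with Sqle changed sign for Scap (-0.23) and Mylip (0.17) with group means kept and for Ggps1 (-0.060) without the libraries farthest from the median. Without single libraries it ran from -0.076 to 0.46 for Ggps1, -0.69 to 0.13 for Mylip, -0.052 to 0.48 for Srebf2 and -0.11 to 0.41 for Scap. The SE of the log2 fold change was 0.07 to 0.30 over the 26 genes, which limits the differences that can be called. The causes of the changes were not tested.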
